A study of Mus musculus with 2 samples.

Results

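The cells described here are neutrophils from the spleens of tumour-bearing PyMT mice that were rich in the Camp transcript and showed almost no transcripts of cell division. Single-cell RNA-seq (10x Genomics 3′ chemistry, which counts the ends of messenger RNAs as unique molecular identifiers, UMIs) was made from CD11b+ Gr1+ spleen cells in 1 library per group. For PyMT, the spleens of 3 mice with tumours were pooled, and their strain label reads only PYMT. For wild type, the spleens of 5 mice labelled FVB/n were pooled. The promoter that drives PyMT, the animals' ages and the animal each cell came from are not given in the labels, so each library is 1 sample. A cell was a member if S100a8 and S100a9 made up at least 10% of its UMIs, Camp at least 4%, Wfdc17 under 0.5%, and Mpo, Elane, Prtn3 and Ctsg together under 0.1%. It also had to hold fewer than 2 UMIs of Cd79a and Cd79b, fewer than 3 of Csf1r, Ccr2, Ace and Adgre4, and fewer than 3 of the cycling genes Mki67, Top2a, Birc5, Cdk1, Ccna2 and Ube2c. In the PyMT library 1408 of 9155 cells passed (15.4%, exact 95% interval 14.6 to 16.1), and in the wild-type library 2906 of 5491 cells passed (52.9%, 51.6 to 54.3), so that 1408 of all 14646 cells are members. Because the cells were sorted before loading, these are shares of the sorted cells and not of the spleen. Intervals here and below cover counting error only, and no difference between the libraries has a replicate check.

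Neutrophils fill their granules in a fixed order as they mature. Promyelocytes, which still divide, load the primary granules (Mpo, Elane), and the cells that follow load the secondary granules, whose messages include Camp, Ltf, Ngp and Lcn2. Gelatinase granules (Mmp9) and the late genes Retnlg, Cxcr2 and Il1b come last, as the nucleus segments and the cell becomes ready to leave the marrow. Camp encodes the precursor of the cathelicidin antimicrobial peptide, so a cell with high Camp and no cycling genes sits after the last division and before full maturity. Tumours of many kinds drive the marrow and spleen to release more of these younger forms.

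Camp was chosen as the gate, and its distribution sets the comparison. Among non-cycling neutrophils with low Wfdc17, Camp in PyMT cells was most often between 4 and 5% of UMIs, and in wild-type cells it was most often between 7.5 and 8%. The median over members was 4.89% in PyMT cells and 7.47% in wild-type cells, and the highest single cell reached 10.6% in PyMT and 12.9% in wild type. PyMT members therefore crowd at the lower edge of the gate. Of the PyMT members, 1235 had 4 to 6% Camp, 157 had 6 to 8% and 16 had 8% or more, which is 87.7%, 11.2% and 1.14% of them. Of the wild-type cells, 587, 1259 and 1060 fell into these bins, or 20.2%, 43.3% and 36.5%. All ratios of PyMT over wild-type cells below were taken within these 3 Camp bins and combined into 1 common ratio, and values per bin are given in the order 4 to 6%, 6 to 8%, and 8% or more.

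**Figure D1:**
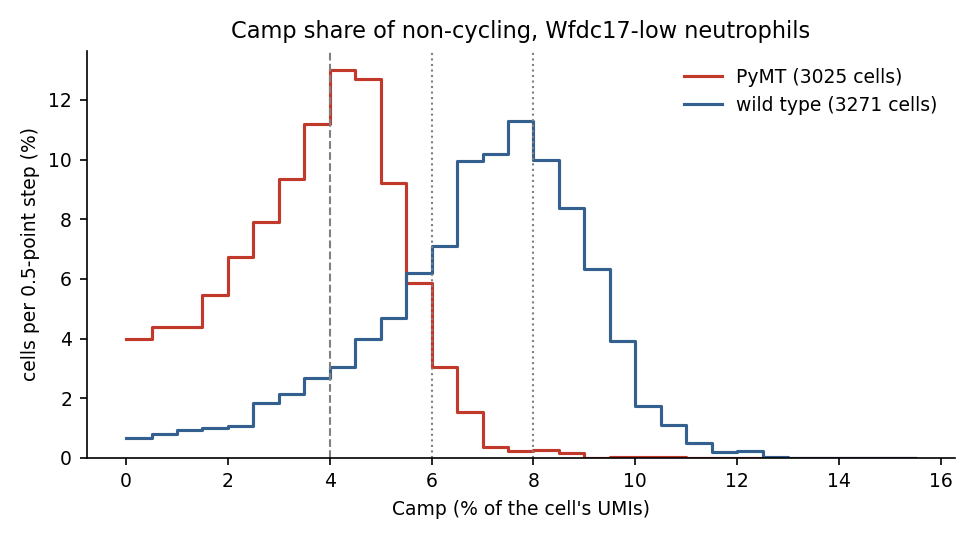
Histogram of Camp as a percentage of a cell's UMIs (x axis, steps of 0.5 points) for non-cycling neutrophils with low Wfdc17 in the PyMT and the wild-type library. The y axis gives the percentage of these cells of each library that fall in each step. The dashed line marks the 4% gate and the dotted lines the bin edges at 6% and 8%; most PyMT cells past the gate lie left of 6%, while most wild-type cells lie right of it.

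Cells on either side of the 4% line were alike. The 158 PyMT cells with 4.0 to 4.2% Camp had 7760 CPM of Ifitm6 (UMIs of the gene per 1000000 UMIs of the same cells) and 53.9 CPM of Ada, and the 140 PyMT cells with 3.8 to 4.0%, just outside, had 7390 and 59.9 CPM. Retnlg stood at 7730 CPM just inside and 8350 CPM just outside, and Padi4 at 228 and 217 CPM. At the other gate, the 18 PyMT cells with 0.4 to 0.5% Wfdc17 had 2700 CPM of Ifitm1, and the 7 cells with 0.5 to 0.6% had 2300 CPM. The Camp line thus cuts a continuous range of cells.

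PyMT members were read more deeply than their wild-type counterparts, with a median of 11215.5 UMIs and 1634.5 genes per PyMT cell against 5393.5 UMIs and 1089 genes per wild-type cell. With every cell thinned to 1000 UMIs the medians were 310 genes in PyMT and 317 in wild type. The 2 libraries share 72 cell barcodes, which 12 PyMT members and 32 wild-type cells of the same gates carry. The sums below rest on 15920100 UMIs in PyMT and 17978401 UMIs in wild type, but the bin of 8% or more holds only 113405 UMIs in PyMT.

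The neutrophil identity of the members held on genes the gates did not use. Ngp stood at 55910 CPM in PyMT members and 53620 CPM in wild-type cells, Ltf at 12870 and 13180 CPM, and Lcn2 at 21370 and 19350 CPM. Ly6g, which encodes an antigen that the Gr1 antibody binds, stood at 903 CPM in PyMT and 1365 CPM in wild type. Marker lists of other cell types were low beside these. The summed level was 47.3 CPM in PyMT and 32.4 CPM in wild type for B cells. It was 39.7 and 43.8 CPM for monocytes, and 8.86 and 13.2 CPM for NK cells. The B cell sum includes 2 gate genes (Cd79a and Cd79b) and the monocyte sum 3 (Csf1r, Ccr2 and Ace). Their UMIs were limited by the gates, so these 2 sums are low in part by the rule. The T cell list summed to 242 CPM in PyMT and 443 CPM in wild type, nearly all of it Cd3d at 236.6 and 437.4 CPM. The macrophage list summed to 103 CPM in PyMT and 96.9 CPM in wild type, and the dendritic cell list to 74.25 and 85.4 CPM. The granulocyte-monocyte progenitor list, with 4 gate genes in it, summed to 83.5 CPM in PyMT and 28.9 CPM in wild type. The erythroid list was higher in PyMT, at 68.5 CPM against 7.51 CPM in wild type, where 2 of its 8 genes were at 0. Its 3 measured genes, Hbb-bs, Hbb-bt and Hba-a1, all passed 1.5-fold upward, and the list's part in the results below was not tested. Mammary epithelial markers summed to 2.26 CPM in PyMT and 0.167 CPM in wild type.

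The genes that name these cells were all higher in PyMT than in Camp-matched wild-type cells, and since they were chosen on these libraries their values are a description. Ada, adenosine deaminase, which turns adenosine into inosine, had 63.9, 61.9 and 26.5 CPM in PyMT and 13.04, 22.4 and 26.4 CPM in wild type. The common ratio was 1.72 on the log2 scale (1.47 to 1.96). It came from the lower Camp bins, since the last bin held only 3 Ada UMIs in PyMT and a difference there was not detectable (log2 interval -2.29 to 1.57). Ifitm6, a member of the interferon-induced transmembrane family found in myeloid cells, had 7699, 7382 and 4092 CPM in PyMT and 3331, 3361 and 3438 CPM in wild type. Its log2 ratio was 1.14 (1.12 to 1.16), and single cells shifted as a body, with a median of 7340 CPM and a 5th to 95th percentile range of 3480 to 12100 CPM in PyMT against a median of 3250 CPM and a range of 1300 to 6180 CPM in wild type. Slfn4, a Schlafen family gene of myeloid cells, had 219, 208 and 141 CPM in PyMT and 102, 81.7 and 79.9 CPM in wild type, a log2 ratio of 1.20.

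The last pair belongs to neutrophil effector biology. Serpinb1a, an inhibitor of the granule proteases, had 827, 881 and 864 CPM in PyMT and 376, 499.7 and 506 CPM in wild type, a log2 ratio of 0.97 (0.91 to 1.03). Padi4, the peptidyl arginine deiminase that citrullinates histones when neutrophils release chromatin traps, had 214, 196 and 229 CPM in PyMT and 134, 139 and 138 CPM in wild type, a log2 ratio of 0.60 (0.49 to 0.71). Padi4 is the mildest of them and Ada the steepest, and no marker was higher in wild type in any bin. Camp itself, matched by design, had a log2 ratio of -0.11.

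Within the PyMT library these markers set the members apart from their neighbours only in part. Ada stood at 63.4 CPM in members, 34.4 CPM in the 1617 otherwise eligible PyMT neutrophils with Camp under 4%, and 9.03 CPM in the 1984 PyMT neutrophils with Wfdc17 at 0.5% or more. Serpinb1a followed the same order at 833, 646 and 261 CPM. Ifitm6, Slfn4 and Padi4 did not, with 7640, 217.5 and 212 CPM in members against 8107, 234 and 224 CPM in the cells with Camp under 4%. Those 3 genes were about as high on either side of the gate, so the label's genes do not all set the Camp-high cells apart.

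The upstream sequences of 4 genes are shown because they hold a motif tied to the pathways described below. They are the 250 bases before the RefSeq transcript start, on the gene's strand, 5′ to 3′, from the RefSeq table on GRCm38.p6, and capitals mark the motif match. Of the 6 label genes 5 have a promoter in that table, and 2 of them, Ada and Ifitm6, hold a match: TTCNNNGAA, the palindrome bound by STAT proteins, starts 90 bases before the start of Ada and 10 bases before that of Ifitm6. Ifitm2 holds GAAANNGAAA, the core of the interferon-stimulated response element, 46 bases before its start. Retnlg, a late maturation gene that was lower in PyMT, holds TTGCNNAA, the outer letters of a C/EBP site, on the reverse strand 246 bases before its start.
Ada, chr2:163750240-163750489, minus strand: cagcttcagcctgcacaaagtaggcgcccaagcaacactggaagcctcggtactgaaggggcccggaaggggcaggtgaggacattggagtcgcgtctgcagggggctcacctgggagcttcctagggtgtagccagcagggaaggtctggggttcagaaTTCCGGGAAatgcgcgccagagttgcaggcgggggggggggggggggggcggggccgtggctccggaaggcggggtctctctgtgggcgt
Ifitm6, chr7:141016893-141017142, minus strand: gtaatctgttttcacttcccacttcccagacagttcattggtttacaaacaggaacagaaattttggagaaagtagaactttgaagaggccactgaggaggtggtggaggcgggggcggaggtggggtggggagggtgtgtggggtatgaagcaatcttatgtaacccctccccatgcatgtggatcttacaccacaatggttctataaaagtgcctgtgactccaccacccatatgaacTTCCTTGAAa
Ifitm2, chr7:140955962-140956211, minus strand: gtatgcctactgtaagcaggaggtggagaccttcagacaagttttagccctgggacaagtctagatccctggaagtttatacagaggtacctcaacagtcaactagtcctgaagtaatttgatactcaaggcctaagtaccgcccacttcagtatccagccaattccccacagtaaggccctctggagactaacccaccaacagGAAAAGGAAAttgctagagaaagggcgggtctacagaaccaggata
Retnlg, chr16:48872358-48872607, plus strand: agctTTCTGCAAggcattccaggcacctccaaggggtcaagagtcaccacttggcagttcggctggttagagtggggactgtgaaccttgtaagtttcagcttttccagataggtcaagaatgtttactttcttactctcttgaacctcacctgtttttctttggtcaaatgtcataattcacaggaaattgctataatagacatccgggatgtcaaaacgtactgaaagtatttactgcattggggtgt

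Searched on both strands, TTCNNNGAA occurred in 7.02% of all 32851 promoters of this length, GAAANNGAAA in 2.98% and TTGCNNAA in 9.56%. None of the 11 matched promoters among the 12 highest genes held TTCNNNGAA, 1 (Saa3) held GAAANNGAAA, and 3 (Hbb-bs, Saa3 and Stfa1) held TTGCNNAA. Of the 10 matched Ifitm and stefin promoters, 1 held the first motif (Ifitm6), 1 the second (Ifitm2) and 2 the third (Ifitm7 and Stfa1). A match describes letters in a window and is no evidence of binding.

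Over 7825 genes with at least 50 UMIs in both libraries together, 493 were at least 1.5-fold higher in PyMT members (6.30%) and 2039 at least 1.5-fold lower (26.1%), with a median log2 ratio of -0.21. The balance depends on scaling. TMM scaling, which recentres the libraries on the bulk of genes, moved the median by 0.235 and gave 991 higher and 1238 lower genes, so that the higher genes were 44.5% of those called in place of 19.5%. Median-of-ratios scaling gave 818 and 1473, or 35.7%. In what follows each group of genes is set against the shares above and the median of -0.21.

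RNA that leaks from broken cells enters every droplet, and B cells of the same library show its level. The 1140 PyMT B cells held a median of 3501 UMIs and the 362 wild-type B cells 3981. Of the 493 higher genes, 200 had at least 2 times as many UMIs per PyMT member as per PyMT B cell, and of the 2039 lower genes 383 had at least 2 times as many per wild-type neutrophil as per wild-type B cell. A gene that B cells transcribe themselves also misses this mark. The mark compares UMIs per cell, and median depth was 11215.5 UMIs in PyMT members and 5393.5 in wild-type neutrophils. It is therefore easier to pass in PyMT, and the 2 counts cannot be set against each other. The share of all 7825 genes that pass it is not given here. Most PyMT B cell barcodes also carried neutrophil transcripts: only 55 of the 1140 had S100a8 and S100a9 under 1% of UMIs, against 302 of 362 in wild type. These 55, called B cells with little S100 below, are given beside all B cells where the level differs between them. Among the 12 highest genes 9 passed and among the 12 lowest 6 passed, and the text below keeps the others apart.

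**Figure D2:**
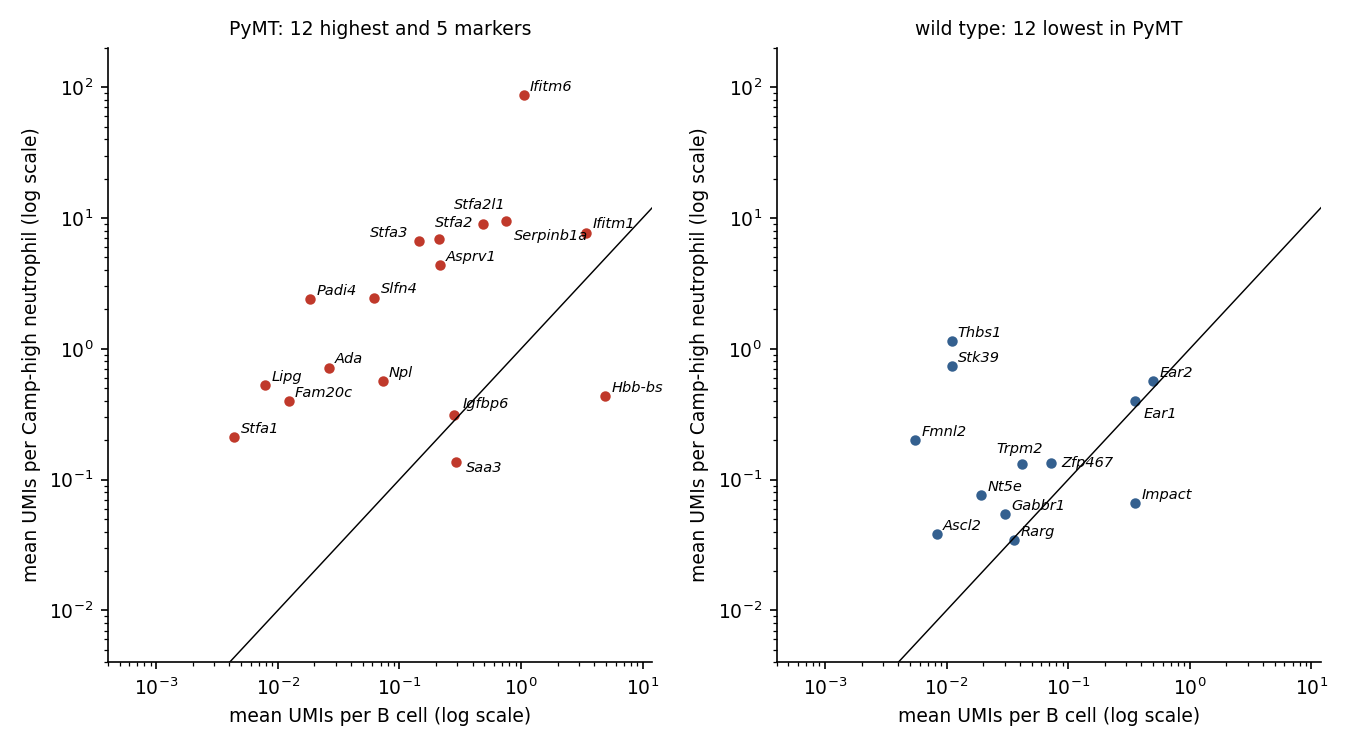
Mean UMIs per B cell (x axis, log scale) against mean UMIs per Camp-high non-cycling neutrophil (y axis, log scale) for the named genes, PyMT library on the left and wild-type library on the right; the diagonal marks equal levels. In PyMT, Stfa2 lies far above the diagonal (6.90 per member, 0.211 per B cell), while Igfbp6 lies on it (0.313 and 0.281) and Hbb-bs below it (0.433 and 4.91).

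The stefin A genes, a mouse cluster on chromosome 16 that encodes small inhibitors of cysteine cathepsins, were higher in PyMT as a group. All 6 measured stefin A genes on the list were at least 1.5-fold higher, and the other 2 measured members of the list, the cystatins Cst3 and Cstb, were not (log2 ratios -0.50 and -0.40). The median over the 8 was 3.50, and the count stayed at 6 higher and none lower in the 3 other scalings run. The 6 genes lie between 36156811 and 36455392 on chromosome 16 (GRCm38), in the order Stfa2l1, Stfa1, BC117090, BC100530, Stfa2 and Stfa3. They are near copies of each other, and reads could be split or lost between them in counting. The gene model Gm5483, at 1251 CPM in PyMT members and 47.7 CPM in wild type, was not on the list.

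BC100530 was the most abundant of the 6. It had 4580, 2885 and 1896 CPM in PyMT and 373, 125 and 50.8 CPM in wild type, a log2 ratio of 4.14. Stfa2 had 642, 367 and 229 CPM in PyMT and 49.5, 9.01 and 0.896 CPM in wild type, a log2 ratio of 4.51 (4.31 to 4.71). Both were lower in each higher Camp bin in both libraries, and PyMT stood above wild type in every bin. Stfa3 had 622, 352 and 414 CPM in PyMT and 50.5, 23.4 and 6.12 CPM in wild type (log2 ratio 3.92), and Stfa2l1 had 849, 440 and 52.9 CPM in PyMT and 119.9, 46.3 and 12.4 CPM in wild type (log2 ratio 3.00). BC117090 and Stfa1 ran lower, at 242.5 and 20.03 CPM in the first bin in PyMT and 32.3 and 1.30 CPM there in wild type.

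The stefin genes differed in how widely they were seen. BC100530 had a UMI in 91.3% of PyMT members, Stfa2l1 in 60.2%, Stfa2 in 47.0% and Stfa3 in 42.6%, against 56.1%, 21.1%, 12.8% and 12.4% of PyMT B cells, which are less deep. Stfa2 was seen in 662 of the PyMT members and 59 of the wild-type cells, the median PyMT member had none, and the 95th percentile was 3840 CPM in PyMT. The 20 richest cells held 2106 of 9715 Stfa2 UMIs in PyMT and 183 of 232 in wild type. Thinned to 1000 UMIs, 18.8% of PyMT members and 3.51% of PyMT B cells held a Stfa2 UMI (exact 95% intervals 16.7 to 20.9 and 2.52 to 4.75). Stfa3 was likewise uneven over cells, with 2433 of 9421 UMIs in the 20 richest PyMT cells and 236 of 388 in the 20 richest wild-type cells. What free RNA adds to the stefin genes was not tested.

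The Ifitm family, which encodes small membrane proteins that restrict virus entry and follow interferon and other signals, was also mostly higher. Of 6 measured members 5 were at least 1.5-fold higher and 1, Ifitm10, was at least 1.5-fold lower (log2 ratio -0.61, within 1.5-fold under TMM scaling), with a median of 1.52. Ifitm2 had 2250, 1855 and 776 CPM in PyMT and 605, 473 and 455 CPM in wild type, a log2 ratio of 1.89 (1.85 to 1.94). Ifitm3 had 2755, 2422 and 1199 CPM in PyMT and 1388, 1114 and 1042 CPM in wild type, a log2 ratio of 1.02. The differences in Ifitm2, Ifitm3 and Ifitm6 narrowed in the 16 PyMT cells with most Camp. Ifitm2 held 24.9 UMIs per PyMT member and 2.62 per PyMT B cell, and Ifitm6 86.4 and 1.05.

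Ifitm1 ranked second among the 12 highest genes, and its level beside free RNA depends on the measure. It had 711, 469 and 353 CPM in PyMT and 45.6, 14.0 and 8.07 CPM in wild type, a log2 ratio of 4.60 (4.41 to 4.78). Yet thinned to 1000 UMIs it was seen in 36.8% of PyMT members (34.3 to 39.4) and 33.4% of PyMT B cells (30.7 to 36.2), and in 1.10% of wild-type members against 1.66% of wild-type B cells. Per cell the PyMT members held more, with 7.72 UMIs against 3.41 in PyMT B cells and 0.945 in B cells with little S100. Median depths were 11215.5 UMIs in PyMT members and 3501 in PyMT B cells. As a share of UMIs Ifitm1 stood at 683 CPM in PyMT members and 801 CPM in PyMT B cells. The spread was wide, with a median of 360 CPM and a 95th percentile of 2690 CPM over PyMT members, and the 20 richest cells held 1498 of 10876 UMIs in PyMT and 134 of 309 in wild type.

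Other genes that ranked among the 12 highest and passed the B cell mark had varied roles. Asprv1, a retroviral-like aspartic protease also made in skin, had 400, 276 and 35.3 CPM in PyMT and 41.1, 17.4 and 13.4 CPM in wild type, a log2 ratio of 3.57 (3.39 to 3.75). Npl, N-acetylneuraminate pyruvate lyase, which breaks down sialic acid, had 50.4, 44.7 and 35.3 CPM in PyMT and 2.28, 2.68 and 2.69 CPM in wild type, a log2 ratio of 4.13. Npl was flat over Camp in both libraries, unlike the stefins. Fam20c, a Golgi kinase that phosphorylates secreted proteins, had 37.2, 18.5 and 17.6 CPM in PyMT and 1.96, 1.83 and 1.20 CPM in wild type (log2 ratio 3.74), and Lipg, endothelial lipase, had 48.8, 33.3 and 8.82 CPM in PyMT and 4.56, 1.95 and 1.49 CPM in wild type (log2 ratio 3.71).

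Igfbp6, Saa3 and Hbb-bs ranked among the 12 highest, with log2 ratios of 5.90, 5.48 and 3.20, but missed the B cell mark. Igfbp6 had 0.313 UMIs per PyMT member, 0.281 per PyMT B cell and 0.0727 per B cell with little S100. Hbb-bs, a haemoglobin chain, had 0.433, 4.91 and 0.291, and Saa3, an acute phase protein, had 0.137, 0.289 and 0.218. Saa3 was thus below both B cell levels and Igfbp6 above both, while Hbb-bs lay above or below according to which B cells were taken. What free RNA adds to these 3 genes was not tested further.

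**Figure D3:**
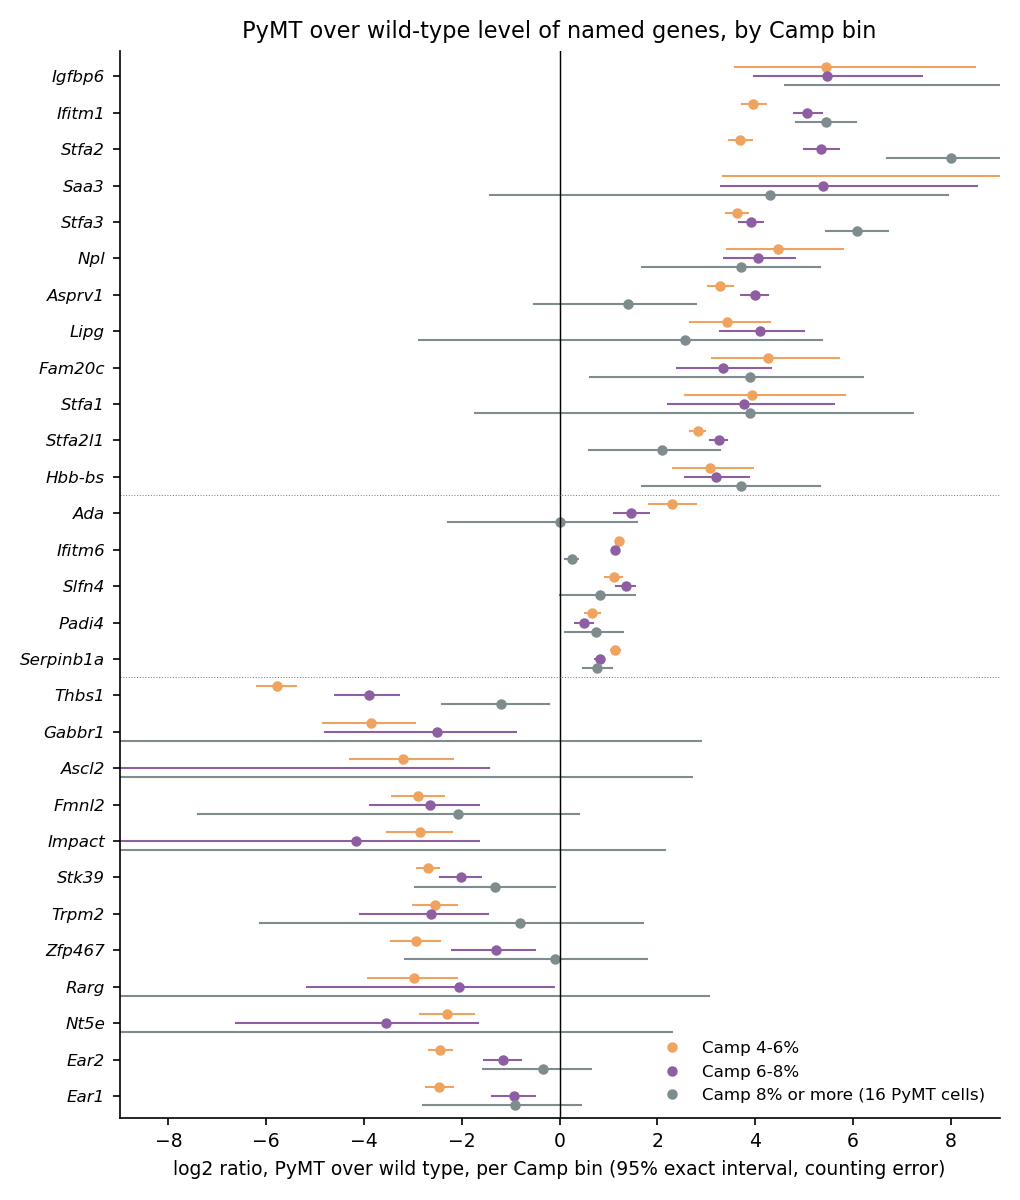
Log2 ratio of PyMT over wild type (x axis) in each Camp bin for the 12 highest genes, the 5 label markers other than Camp, and the 12 lowest genes (y axis); points are the 3 bins and bars their exact 95% counting intervals. The points of Stfa1, Stfa2, Stfa2l1 and Stfa3 lie right of 0 in all bins, that of Ada reaches 0 in the bin of 8% or more, and Thbs1 comes closer to 0 as Camp increases.

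The list of STAT3 targets, SOCS feedback genes and acute phase genes held 12 of 23 measured genes at least 1.5-fold higher and 4 lower, with a median of 0.78, beside 6.30% and 26.1% of all genes. The median was 0.57 at 4 to 6% Camp and 0.24 at 6 to 8%. It was 0.995 under TMM scaling, with 12 of 23 higher. Depth mattered: the median was 0.16 thinned to 1000 UMIs (6 of 14 higher) and 0.13 in cells with 4000 to 10000 UMIs (9 of 19 higher). Of the 12 higher genes 5 passed the B cell mark, namely Bcl3, Pim1, Lrg1, Il1r2 and Hp, and of the 4 lower genes Osm did. Lrg1, an acute phase glycoprotein carried in neutrophil granules, had 1721, 1412 and 908 CPM in PyMT and 844, 756 and 708 CPM in wild type, a log2 ratio of 0.96. Bcl3, an atypical I-kappa-B protein, had 27.7, 23.2 and 26.5 CPM in PyMT and 11.1, 4.87 and 4.48 CPM in wild type (log2 ratio 1.74). Il13ra1, a receptor chain for IL-4 and IL-13, had a log2 ratio of 2.66 on 0.130 UMIs per PyMT member and 0.0860 per PyMT B cell. Socs3, the feedback inhibitor of IL-6 and G-CSF signalling, was higher by 2.07 and held 0.346 UMIs per PyMT member, 0.343 per PyMT B cell and 0.164 per B cell with little S100. Steap4 had 127 UMIs in PyMT and none in wild type. Over all bins together, without matching, that is at least 5.58 on the log2 scale with 3 counts in place of the 0. Steap4 held 0.0902 UMIs per PyMT member, 0.0965 per PyMT B cell and 0.0182 per B cell with little S100. Socs1, Jak2 and Osm were lower, with log2 ratios of -1.33, -1.26 and -0.88.

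The interferon response list was split. Of 29 measured genes 5 were at least 1.5-fold higher and 5 lower, and the median of -0.16 was close to that of all genes. It was 0.09 under TMM scaling and 0.01 under median-of-ratios scaling, so its sign depends on the scaling. Oas1a, an oligoadenylate synthetase with close paralogs, had 25.7, 17.9 and 17.6 CPM in PyMT and 7.50, 5.11 and 4.48 CPM in wild type, a log2 ratio of 1.80. It held 0.281 UMIs per PyMT member and 0.0333 per PyMT B cell, and with Oas2 it was the only higher interferon gene past the B cell mark; among the lower ones only Ddx60 was past it. Rtp4, Oas2, Trim30a and Oasl2 had log2 ratios of 1.61, 1.27, 1.09 and 0.92. Against them stood Bst2, which tethers budding virus, at -2.02, and Ddx60 at -1.28. In the Schlafen family Slfn4 was higher, Slfn8 lower at -1.32, and Slfn1 and Slfn2 lay within 1.5-fold at 0.50 and 0.57. Bst2 and Slfn8 were lower through the bin of 4 to 6%, with log2 ratios of -2.32 and -1.55 there but 0.61 and 0.705 at 6 to 8%. They held only 41 and 24 UMIs in PyMT.

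Genes linked to suppressive myeloid cells were likewise mixed in these younger neutrophils. The list holds genes the study derived from these libraries, so its direction is not independent evidence. Of 21 measured genes 6 were at least 1.5-fold higher and 7 lower, with a median of -0.26, which was -0.01 under TMM scaling. Of the higher genes Ifitm1, Asprv1 and Upp1 passed the B cell mark, and of the lower ones Il1rn and Clec4e. Upp1, uridine phosphorylase, had a log2 ratio of 1.42, with 1.27 UMIs per PyMT member and 0.0754 per PyMT B cell. Il1b was higher by 1.79 with 126, 65.5 and 52.9 CPM in PyMT and 30.6, 24.7 and 9.86 CPM in wild type, with 1.35 UMIs per PyMT member, 1.42 per PyMT B cell and 0.309 per B cell with little S100. Il1rn, the IL-1 receptor antagonist, was lower at -2.03, Ptgs2, which makes prostaglandins, at -1.55, Amica1 at -1.06, Cd84 at -0.85 and Arg2 at -0.64.

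Secondary granule genes, the class to which Camp belongs, had a median of 0.16, near equality but above the median of -0.21 over all genes. It was 0.39 under TMM scaling and 0.32 under median-of-ratios scaling. Of 20 measured genes 5 were at least 1.5-fold higher and 3 lower, beside 6.30% and 26.1% of all genes. All 8 of these passed the B cell mark. Fcnb, ficolin B, a lectin of early granulocytes, had 126, 198 and 176 CPM in PyMT and 33.6, 86.1 and 116 CPM in wild type, a log2 ratio of 1.38. Chil3, a chitinase-like protein, had 4979, 6167 and 7248 CPM in PyMT and 2295, 4273 and 4879 CPM in wild type (log2 ratio 0.79), and Orm1, an acute phase protein, 219, 325 and 397 CPM in PyMT and 85.4, 222.5 and 326 CPM in wild type (log2 ratio 0.82). Fcnb, Chil3 and Orm1 were higher in PyMT in every bin, with the gap widest where Camp was lowest. Mmp8, neutrophil collagenase, ran the other way with 455, 362 and 406 CPM in PyMT and 1588, 992 and 577 CPM in wild type, a log2 ratio of -1.74. Lcn2 and Ngp lay within 1.5-fold at 0.32 and 0.26, and Olfm4 and Itgb2l were lower at -0.93 and -0.70.

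Granule classes on either side of this stage differed in direction. Of 12 measured primary granule genes 5 were at least 1.5-fold higher and none lower, with a median of 0.29, and 4 of the 5 passed the B cell mark, Ms4a3, Serpinb1a and Prss57 among them. Ms4a3, a marker of granulocyte-monocyte progenitors and their progeny, had 48.1, 45.8 and 115 CPM in PyMT and 11.7, 20.7 and 20.9 CPM in wild type (log2 ratio 1.60), and Ctsc, a lysosomal protease that activates granule proteases, had a log2 ratio of 0.75. Of 12 measured gelatinase granule and secretory vesicle genes none was higher and 6 were lower, with a median of -0.56. The 6 were 3 under TMM and median-of-ratios scaling and with no matching on Camp, and 2 in cells with 4000 to 10000 UMIs. Of these 6 genes 5 passed the B cell mark, Slc11a1 being the exception. Mmp9, gelatinase B, had 603, 519 and 767 CPM in PyMT and 1221, 930 and 770 CPM in wild type, a log2 ratio of -0.96, and Adam8, Slc11a1 and Itgam had -1.28, -0.91 and -0.70. The late maturation list had 25 measured genes, of which 11 were at least 1.5-fold lower and 4 higher; its median was -0.39.

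**Figure D4:**
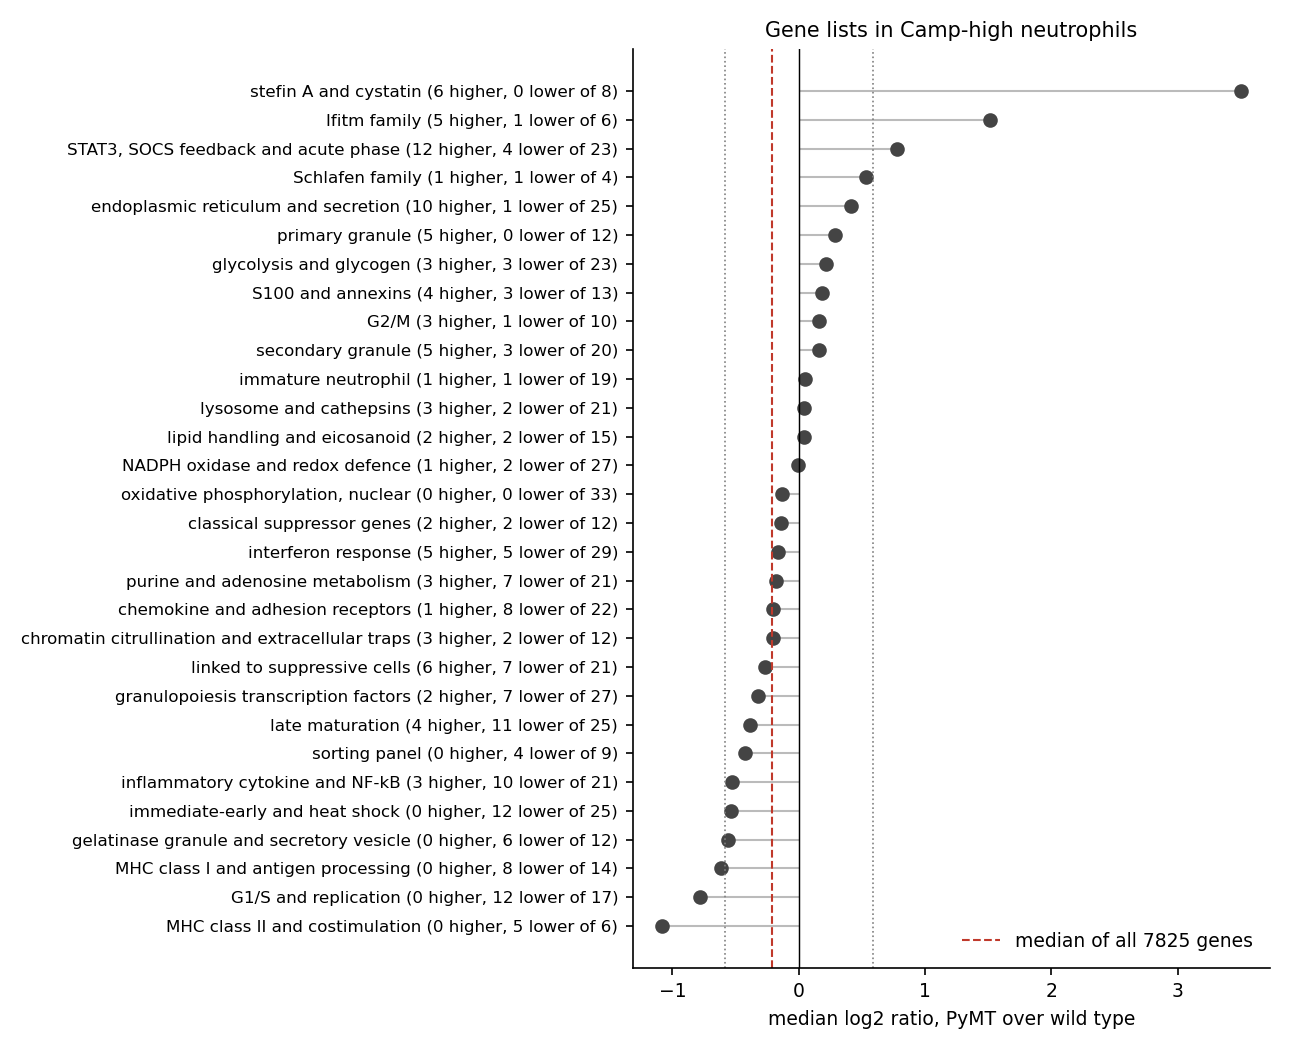
Median log2 ratio of PyMT over wild type for the gene lists of functions and maturation stages (points, x axis). The numbers of measured genes at least 1.5-fold higher and lower stand beside each list name (y axis). Marker lists of cell types, lists with few measured genes and lists of genes picked as high in either library's neutrophils are not drawn. The list linked to suppressive cells, also derived from these libraries, is drawn. The dashed line is the median of all 7825 genes (-0.21) and the dotted lines mark 1.5-fold; the stefin list (3.50) and the Ifitm family (1.52) lie right of the other lists drawn, and MHC class II (-1.08) and G1/S genes (-0.78) lie left of them.

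Late genes varied strongly with Camp inside each library, so that matching on Camp does not match maturity in full. Retnlg, resistin-like gamma, had 5680, 4044 and 2760 CPM in PyMT and 16320, 6005 and 2897 CPM in wild type, a log2 ratio of -1.39 that comes from the lower bins. Per cell the medians were close, 3820 CPM in PyMT and 3710 CPM in wild type, while the 5th percentile was 1030 CPM in PyMT and 170 CPM in wild type and the 95th was 18800 CPM in PyMT and 28100 CPM in wild type. Over all bins together, PyMT members thus spanned a narrower range of Retnlg. Cxcr4, the receptor that holds neutrophils in the marrow, had 57.8, 52.4 and 88.2 CPM in PyMT and 168, 148 and 137 CPM in wild type (log2 ratio -1.52).

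When cells were matched on Retnlg in 5 bins in place of Camp, an alternative chosen after seeing the data, the median of the late maturation list was 0.09, with 8 genes past 1.5-fold upward and 2 downward. The interferon list then stood at 0.25 (9 upward, 2 downward) and the suppressive list at 0.66 (11 upward, 2 downward). With no matching at all the medians were much the same, 0.08, 0.28 and 0.51, so the direction of these 3 lists depends on whether cells are matched on Camp. The stefin list kept 6 genes higher and none lower, and the Ifitm family 5 higher and 1 lower. Single genes moved with them: Stfa2 had a log2 ratio of 5.50, Ada 1.48 and Thbs1 -5.07 when matched on Retnlg.

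Genes of the secretory pathway were abundant in B cells, which limits them here. Of 25 measured genes of the endoplasmic reticulum and secretion 10 were at least 1.5-fold higher and 1 lower, with a median of 0.41, but only Ssr3 and Xbp1 passed the B cell mark. Pdia4 and Pdia6, disulfide isomerases, had log2 ratios of 1.38 and 0.81, Manf, a secreted stress factor of the endoplasmic reticulum, 1.11, and Xbp1, a transcription factor of the unfolded protein response, 0.60. Pdia4 held 0.0518 UMIs per PyMT member and 0.435 per PyMT B cell. With no matching on Camp the count was 4 higher and 1 lower. Atf4 was the lower gene at -0.83. Ada belongs to a purine and adenosine list of which 3 of 21 measured genes were at least 1.5-fold higher and 7 lower. Beside Ada these included Adora3, an adenosine receptor, at 1.68, against Nt5e at -2.42 and Paics, an enzyme of purine synthesis, at -1.30. Ada and Adora3 passed the B cell mark, and of the lower genes only Nt5e did. Of the 12 genes of the chromatin trap list, which holds Padi4, 3 were higher and 2 lower. The inflammatory cytokine and NF-kB list had 3 of 21 higher and 10 lower (median -0.53). Tnfaip3, which curbs NF-kB, stood at -1.92 and Cxcl2, a neutrophil chemokine, at -1.40. Only Il1r2 of the higher genes and Cxcl2, Tnf and Osm of the lower ones passed the B cell mark. Tnfaip3, on 20 UMIs in PyMT, missed it. Of 33 measured oxidative phosphorylation genes none passed 1.5-fold in either direction, and of 23 glycolysis genes 3 were higher and 3 lower.

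S100a6, a calcium-binding partner of annexins, had 5183, 4216 and 2989 CPM in PyMT and 3002, 1721 and 1243 CPM in wild type, a log2 ratio of 0.98. The S100 and annexin list had 4 of 13 genes higher and 3 lower, and none of the 3 passed the B cell mark. S100a4 and S100a10, at -1.43 and -1.36, were lower through the bin of 4 to 6%, with log2 ratios of -1.77 and -1.55 there but 0.19 and -0.37 at 6 to 8%. The gate genes S100a8 and S100a9 made up a median of 36.8% of UMIs in PyMT members and 35.6% in wild-type cells.

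Thbs1, thrombospondin 1, a matrix glycoprotein that activates TGF-beta, ranked first among the 12 lowest genes. It had 4.18, 12.5 and 70.5 CPM in PyMT and 228.5, 186 and 162 CPM in wild type, a log2 ratio of -5.30 (-5.62 to -4.98). Thbs1 was seen in 4.62% of PyMT members and 52.6% of wild-type cells at full depth, and in 0.639% and 16.8% when thinned to 1000 UMIs. Wild-type neutrophils held 1.14 UMIs of Thbs1 per cell and wild-type B cells 0.011, and what free RNA adds was not tested. The level in PyMT increased with Camp while that in wild type declined.

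Stk39 and Fmnl2 followed Thbs1 with clear levels in wild type. Stk39, a kinase of the WNK pathway that controls ion transport, had 20.2, 30.4 and 44.1 CPM in PyMT and 130.4, 122 and 110 CPM in wild type (log2 ratio -2.54). Fmnl2, a formin that elongates actin filaments, had 3.54, 4.76 and 8.82 CPM in PyMT and 26.4, 30.1 and 37.5 CPM in wild type (log2 ratio -2.84). Ascl2, a transcription factor, Trpm2, a calcium channel, and Nt5e, an ecto-nucleotidase that makes adenosine, also passed the B cell mark, with log2 ratios of -3.38, -2.54 and -2.42, on levels of at most 32.3 CPM in any bin. Ear1 and Ear2, close copies of eosinophil-associated ribonucleases, had log2 ratios of -2.09 and -2.11, yet wild-type B cells held 0.356 and 0.497 UMIs per cell beside 0.397 and 0.566 in wild-type neutrophils. Gabbr1, Impact, Rarg and Zfp467, at -3.65, -2.96, -2.89 and -2.56, also missed the mark.

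Several lists outside the granule program had more genes lower than higher in PyMT. Of 14 measured MHC class I and antigen processing genes 8 were at least 1.5-fold lower and none higher (median -0.62), but 4 under TMM and median-of-ratios scaling and 2 of 11 with cells thinned to 1000 UMIs, and H2-K1 had 127, 137 and 256 CPM in PyMT and 343, 308 and 270 CPM in wild type (log2 ratio -1.35). H2-Q7 and H2-T22 were lower at -1.97 and -1.02. The MHC class II and costimulation list had 5 of 6 genes at least 1.5-fold lower and none higher (median -1.08). This median came mainly from the bin of 4 to 6% Camp. It was -1.32 there but -0.30 at 6 to 8%, where the median of all genes was -0.22. Cd74 had log2 ratios of -1.35 at 4 to 6% and 0.08 at 6 to 8%, and H2-Aa had -1.30 and -0.16. Cd80, on 16 UMIs in PyMT, stayed lower at -1.76 and -1.96. Of 25 immediate-early and heat shock genes, which respond within minutes to stimuli and stress, 12 were lower and none higher (median -0.54), with Fosb at -2.35 and Hspa1b at -2.14. Of 17 G1/S and replication genes 12 were lower and none higher (median -0.78), with Hells at -2.44, Dut at -1.88 and Mcm5 at -1.50. The lower genes were 8 of 17 under TMM scaling and 14 of 18 with Camp at 3% or more. They were 4 of 9 in cells with no UMI of the cycling genes and 2 of 4 in cells with 4000 to 10000 UMIs. The cycling gate is a fixed UMI count and PyMT members were deeper, and what it adds to this list was not tested. None of the lower genes of these 4 lists passed the B cell mark: H2-K1, for example, held 1.86 UMIs per wild-type neutrophil and 7.22 per wild-type B cell. What B cell RNA adds to these differences was not tested.

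Within the PyMT members the same genes ordered the cells by Camp. From 4 to 6% to 6 to 8% Camp, the log2 change in PyMT was -0.81 for Stfa2, -0.60 for Ifitm1, -0.49 for Retnlg and -1.06 for Prok2, a chemokine-like peptide of late neutrophils. Orm1 changed by 0.57, Fcnb by 0.66 and Orm2 by 1.05. Wild-type cells ordered these genes the same way with larger steps: Stfa2 -2.46, Ifitm1 -1.71, Retnlg -1.44, Prok2 -1.49, Orm1 1.38, Fcnb 1.36 and Orm2 2.16. The steps of Camp itself were alike, 0.42 in PyMT and 0.46 in wild type. Because Camp defines the bins, these are descriptions and carry no test.

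**Figure D5:**
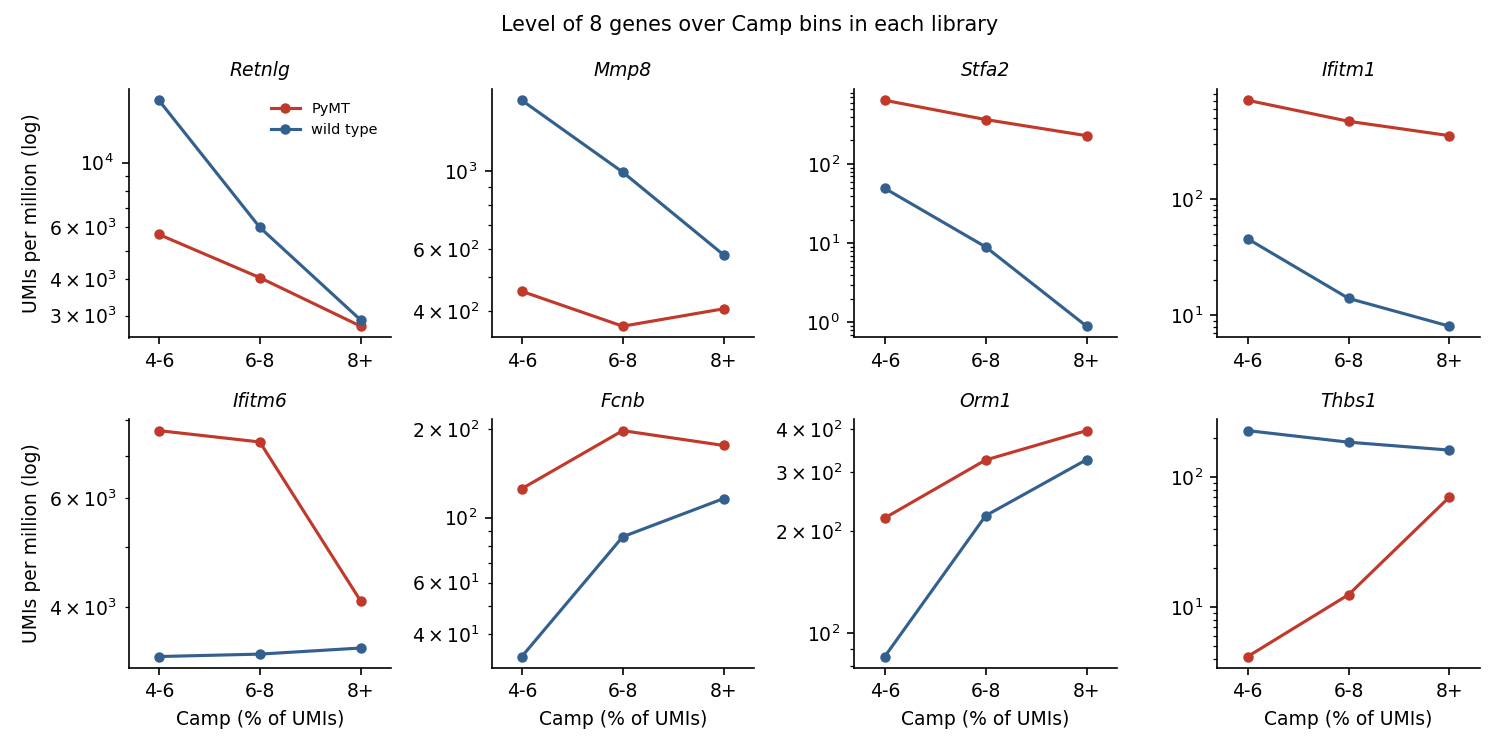
Level of Retnlg, Mmp8, Stfa2, Ifitm1, Ifitm6, Fcnb, Orm1 and Thbs1 (y axis, CPM, log scale) in the 3 Camp bins (x axis) of PyMT and wild-type cells. Retnlg and Mmp8 are lower in PyMT than in wild type at 4 to 6% Camp (5680 against 16320 CPM for Retnlg) and nearer to it at 8% or more (2760 against 2897 CPM for Retnlg).

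The 16 PyMT cells with 8% Camp or more differed from the other members in some genes, chosen here for rising in this bin. They had 70.5 CPM of Thbs1, on 8 UMIs, against 162 CPM in the wild-type bin, and 256 CPM of H2-K1 against 270 CPM. The stefins and Ifitm1 stayed far from wild type, with BC100530 at 1896 CPM in these 16 cells against 50.8 CPM in wild type and Ifitm1 at 353 against 8.07 CPM. Tmem45a2 had 16.5, 16.7 and 167.5 CPM in PyMT and 58.7, 97.4 and 96.9 CPM in wild type, and Tnfsf13b, which encodes the B cell factor BAFF, had 23.6, 40.5 and 123.5 CPM in PyMT. The median depth of the 16 was 7368 UMIs, against 11306 in the PyMT bin of 4 to 6%, and none of them carries a barcode shared with the wild-type library. Without this bin 477 genes were at least 1.5-fold higher and 1898 lower, so the counts above do not rest on it.

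Set against the 1617 PyMT neutrophils with Camp under 4%, which the gate itself separates, members differed in single genes named by rank or by their role, and no list was counted. Fcnb had 134 CPM in members and 27.3 CPM in cells with Camp under 4%, Ms4a3 48.4 and 13.8, Orm1 231.5 and 95.8, and Igfbp4 29.3 and 10.3. Ltf and Chil3 followed with 12870 and 5120 CPM in members against 9459 and 2414 CPM. Late genes ran the other way, with Retnlg at 5487 CPM in members, 18430 in cells with Camp under 4% and 30010 in cells with high Wfdc17, and Prok2 at 93.5, 535 and 1424 CPM.

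Genes of the Wfdc17-high cells were low in members. Ifitm1 had 683 CPM in members, 1942 CPM in cells with Camp under 4% and 9069 CPM in Wfdc17-high cells, Il1b had 119, 159 and 1582 CPM, and Cd84 31.2, 68.7 and 283 CPM. Cxcr2, the chemokine receptor of mature neutrophils, stood at 156, 312 and 900 CPM. Stfa2 was spread more evenly, at 610, 945.5 and 1259 CPM. The Wfdc17-high cells made up 21.7% of the PyMT library and 1 cell (0.0182%) of the wild-type library. PyMT B cells held 4.66 UMIs of Wfdc17 per cell and PyMT members 8.84, and what free RNA of the Wfdc17-high cells adds to the members was not tested.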

How the data were processed

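Cell Ranger 2.1.0 and the mm10 build are named in the submitters' processing notes. The authors deposited 1 matrix of UMI counts per library, raw counts per gene and cell barcode with 27998 gene rows. The lowest total was 2502 UMIs per cell in PyMT (9155 cells, 73435307 UMIs) and 2752 in wild type (5491 cells, 42542700 UMIs). Cells with under 200 genes or over 10% mitochondrial UMIs were left out. No doublet caller was run; the gates on B cell, monocyte and cycling genes and alternatives without the deepest cells stand in its place.

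UMIs of passing cells were summed per library and Camp bin. The common ratio over the 3 bins came from a conditional likelihood with a score 95% interval, and ratios within a bin and shares of cells have exact 95% intervals, all for counting error only. A call is a 1.5-fold ratio among genes with at least 50 UMIs in both libraries together. A library at 0 counts as 3 counts in the sum. With 1 pooled library per group no test between conditions was made. B cells held at least 5 UMIs of Cd79a and Cd79b and under 5% S100a8 and S100a9.

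Named genes are the 12 highest and 12 lowest with at least 100 UMIs and 1 direction in all bins, ranked by the interval bound nearest 0, up to 4 genes with the largest ratios of each list, the label's markers and gate genes; other genes were named after their values were seen. Ribosomal, mitochondrial, immunoglobulin and T cell receptor genes and unnamed gene models were left out; BC100530 and BC117090, clone names, were treated as such, though their interval bounds would place them among the 12 highest. Gate genes entered no count. The members, lists and alternatives were chosen with earlier results of these data known, so they are no independent support. Alternatives covered scaling (TMM from edgeR 4.0.16, median of ratios from DESeq2 1.42.0, R 4.3.3), gates, depth and matching. The ratio was checked on simulated counts. Python 3.11.15 with numpy 2.4.6, scipy 1.17.1, pandas 2.3.3 and matplotlib 3.10.9 was used. Gene positions are from GENCODE M21 on GRCm38.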

Additional observations from a re-analysis of the deposited data

Results flagged for a closer look

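For 5 genes the change from the bin of 4 to 6% Camp to that of 6 to 8% ran in opposite directions in the 2 libraries; the difference between the libraries was not tested. Thbs1 changed by 1.58 on the log2 scale in PyMT members and by -0.30 in wild-type cells. Zfp467 changed by 1.05 in PyMT and -0.60 in wild type, Ear1 by 1.05 in PyMT and -0.49 in wild type, and Ear2 by 0.95 in PyMT and -0.34 in wild type. Ccl5 ran the other way, by -2.29 in PyMT and 1.03 in wild type, on low levels of 11.7 and 2.38 CPM in PyMT and 7.82 and 15.95 CPM in wild type. The PyMT bin of 6 to 8% holds 157 cells.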

How the results depend on the processing

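The counts of genes past 1.5-fold moved with the cells kept, thinning, scaling and the number of UMIs asked for. Genes higher in PyMT numbered 493, and 991 under TMM scaling, 818 under median-of-ratios scaling, 249 with at least 200 UMIs, 946 with at least 10 UMIs, and 153 with cells that hold no UMI of other cell types' markers and lie under the 95th percentile of depth. Genes lower numbered 2039, and 1238 under TMM scaling, 1119 with at least 200 UMIs, 3130 with at least 10 UMIs, 835 thinned to 1000 UMIs, and 255 in those stricter cells. These counts have unlike bases. The genes that entered numbered 7825, but 5270 with at least 200 UMIs, 10199 with at least 10 UMIs, 3829 thinned and 1451 in the stricter cells. Of the genes called, 37.5% were higher in the stricter cells and 30.3% thinned, in place of 19.5%. The stricter cells numbered 40 in PyMT and 166 in wild type, in place of 1408 and 2906. PyMT members numbered 629 with Camp at 5% or more and 429 with 4000 to 10000 UMIs. Interferon genes higher numbered 5 of 29 measured, 10 under TMM scaling, 8 under median-of-ratios scaling and 3 of 12 thinned. They numbered 10 with no matching on Camp and 1 of 4 in the stricter cells. Against wild-type cells with 8% Camp or more the count was 14 of 28, and matched on Retnlg it was 9. Genes linked to suppressive cells numbered 6 higher of 21 measured, and 3 of 11, 14 of 20 and 11 of 21 in the last 3 of those settings. Secondary granule genes lower numbered 3, and 1 in the stricter cells and 1 against wild-type cells with 8% Camp or more. The smaller counts in the stricter cells and with more UMIs asked for follow fewer cells or genes; the cause of the other moves was not tested. Of 576 recomputed ratios of 29 named genes in 20 settings, 437 lay within the counting interval of the reported value, 139 lay outside it, 0 reversed and 4 came under 1.5-fold. The lowest were 0.50 for Padi4 and 0.47 for Serpinb1a. The settings that match on Retnlg, drop the bin of 8% or more, the deepest cells or shared barcodes, or use wild-type cells with 8% or more were chosen after seeing the data. With 1 library per group no replicate could be left out. No paired analysis was possible because each group is 1 pooled library and no result comes from a test.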
